A study of Mus musculus with 172 samples.

Results

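The epiblast (EPI) and the primitive endoderm (PrE) of control mouse blastocysts at embryonic day (E) 4.5 were compared. The cells were those that the study had labelled EPI or PrE in embryos with functional OCT4, 37 EPI cells and 29 PrE cells, and together they make up 66 of the 172 cells of the series and come from 6 of its 19 embryos. Single cells of the inner cell mass (ICM) were profiled by Smart-seq2, a full-length single-cell RNA-seq method, after natural matings of Pou5f1 heterozygotes of mixed genetic background. Pou5f1 encodes OCT4. The trophectoderm (TE) was removed by immunosurgery and its lysate was used to genotype each embryo, and the names given to the deposited data place all E4.5 cells on 1 plate. Embryos 5 and 6 were WT (22 cells) and embryos 1, 2, 4 and 7 were HET, with 1 intact copy of Pou5f1 (44 cells). The study counted both genotypes as controls. The EPI and PrE labels were made by the study by clustering these same transcriptomes, so the differences given here characterise these classes and cannot serve as evidence for them.

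At implantation the ICM has separated into the EPI, which founds the fetus, and the PrE, which founds the endoderm layers of the yolk sac. EPI cells secrete FGF4, whose signal through FGF receptors and the kinases MEK and ERK is needed for PrE formation, and NANOG and GATA6 oppose each other in the shared precursors. The PrE sorts to the surface of the ICM, becomes a polarised epithelium on a basement membrane of laminin and type IV collagen, and takes up and secretes proteins, while the EPI keeps the pluripotency factors.

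Raw counts were summed over the EPI cells and over the PrE cells of each embryo, which gave 6 pairs of sums. The EPI sums held 3 to 8 cells and 3912090 to 15001181 counts, and the PrE sums 2 to 7 cells and 2736296 to 13356319 counts. The shallowest PrE sum, from embryo 6, rested on 2 cells. Levels are given as CPM, a count normalised to the total of its sum (counts per 1000000) after scaling by trimmed mean of M values, with mean ± SD over the 6 embryos. A gene was called when its adjusted p was under 0.05 in the quasi-likelihood test of edgeR with the embryo as a block, adjusted by Benjamini-Hochberg over 9762 genes, and a fitted log2 fold change is EPI minus PrE throughout. A sum can be low because fewer cells of a class expressed a gene or because each held less of its RNA, and the sums cannot tell these apart. The reads carry no molecular identifiers, so intervals on counts and shares cover counting error only.

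The marker sums of each cell followed its label, which describes the classes and is no independent check, since the labels came from the same transcriptomes. The summed CPM of 9 EPI markers was 820 to 5293 in the EPI cells and 57.1 to 491 in the PrE cells. For 11 PrE markers it was 114 to 796 in the EPI cells and 5455 to 26515 in the PrE cells, so neither score overlapped between the classes. Nanog, the homeodomain factor of naive pluripotency (chr6:122707489-122714633, plus strand, GRCm38), had a count in 37 of 37 EPI cells and in 5 of 29 PrE cells, of which 1 reached 10 CPM. The PrE factor Gata6 had a count in 2 of 37 EPI cells and 29 of 29 PrE cells, and Gata4 in 5 and 29. Pou5f1 had a count in 36 of 37 EPI cells and 25 of 29 PrE cells.

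**Figure D1:**
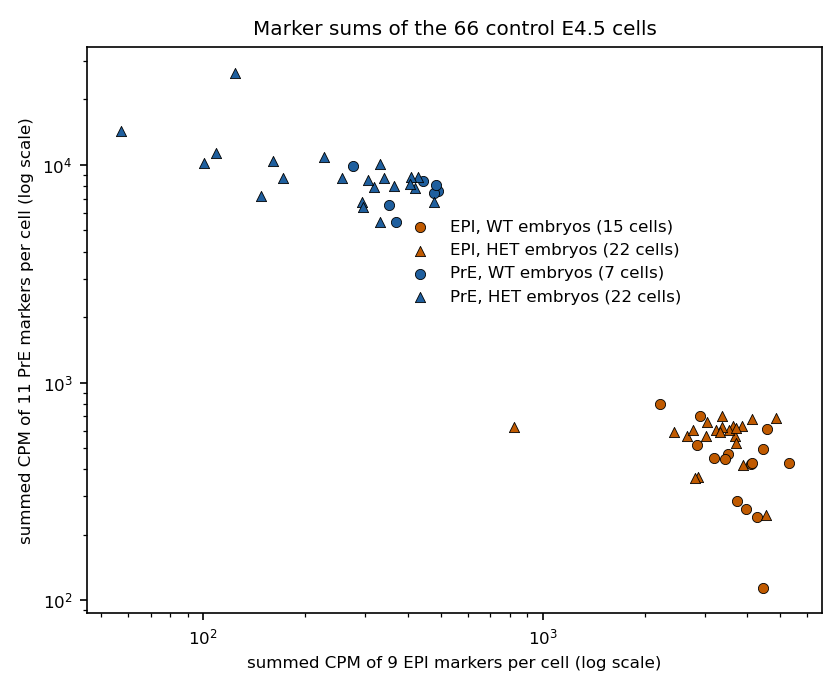
Each point is 1 of the 66 cells, with the summed CPM of 9 EPI markers on the horizontal axis and of 11 PrE markers on the vertical axis (both log scales), coloured by the study's label. The 37 EPI cells and the 29 PrE cells form separate clouds, with no PrE cell above 491 on the EPI axis and no EPI cell above 796 on the PrE axis.

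A pair of cells stood apart within their class by more than 2 times the class median of its own marker sum. An EPI cell of embryo 1 had an EPI marker sum of 820 and a TE marker sum of 271 CPM, and the shallowest PrE cell, of embryo 7, had a PrE marker sum of 26515, 611759 counts and 8.31% mitochondrial counts. Without both cells 750 genes were called in place of 840 (an alternative chosen after seeing the data). Read pairs with more than 1 alignment took 25.4% ± 3.16 in EPI cells and 20.6% ± 1.80 in PrE cells as means per embryo, higher in EPI in 6 of 6 embryos (exact sign-flip permutation test, two-sided p = 0.03125, the smallest that 6 pairs allow, 0.219 after Benjamini-Hochberg adjustment over 7 measures). Its part in the results was not tested. Counts per cell (exact p = 0.656), the mitochondrial share (exact p = 0.3125) and genes detected at a common depth of 611759 counts (6427 ± 334 in EPI and 6658 ± 558 in PrE, n = 6, exact permutation p = 0.344) showed no difference past this spread.

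TE was the other cell type that the preparation could hold. The summed CPM of 10 TE markers was 42.7 ± 33.9 in EPI and 243 ± 176 in PrE (means per embryo, n = 6, higher in PrE in 6 of 6, exact permutation p = 0.03125), and single cells ranged from 0 to 271 and from 0 to 1234. The defining TE factor Cdx2 had a count in 0 EPI cells and 1 PrE cell, and Elf5 and Krt7 had none in any cell. Eomes had a count in 24 of 29 PrE cells and 16 of 37 EPI cells, and the keratins Krt8 in 18 and 8 and Krt18 in 19 and 8. Other TE genes were sparse in both lineages, with 120 counts of Gata3 in 6 PrE cells and 167 in 3 EPI cells, and Krt19, outside the sum, had 17 counts in 1 PrE cell and 281 in 5 EPI cells. The keratins belong to simple epithelia in general. Of 6 TE list genes tested, Fabp3, Krt8 and Eomes were called higher in PrE and Cldn4 higher in EPI, against 4.61% and 4.0% of all genes. The calls of Krt8 (adjusted p = 0.0522 without embryo 2), Eomes and Cldn4 (up to 0.124 and 0.126 by edgeR without embryo 1, 2, 4, 5 or 7) were lost with an embryo left out, and the part of TE RNA in the other results was not tested.

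The lineage contrast was broad. Of the 9762 genes tested, 840 were called (8.60%), 390 higher in EPI (4.0%) and 450 higher in PrE (4.61%), and for 886 (9.08%) the 6 sums of one lineage lay above all 6 of the other. The median log2 fold change of all genes was 0.06. The count fell to 619, 429, 484, 470, 659 and 438 when embryo 1, 2, 4, 5, 6 or 7 was left out in turn, and it was 2408 with DESeq2. All 840 genes kept their direction in each fit that tested them, which their selection from the same cells largely set. Of 521 tested genes in the lists described here, 121 were called higher in PrE and 49 higher in EPI. Genes with low counts were left out by a filter, and a gene nearly absent from 1 lineage passed it only through the other. The direction of such a gene was then largely fixed, and list shares that include such genes carry this limit.

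**Figure D2:**
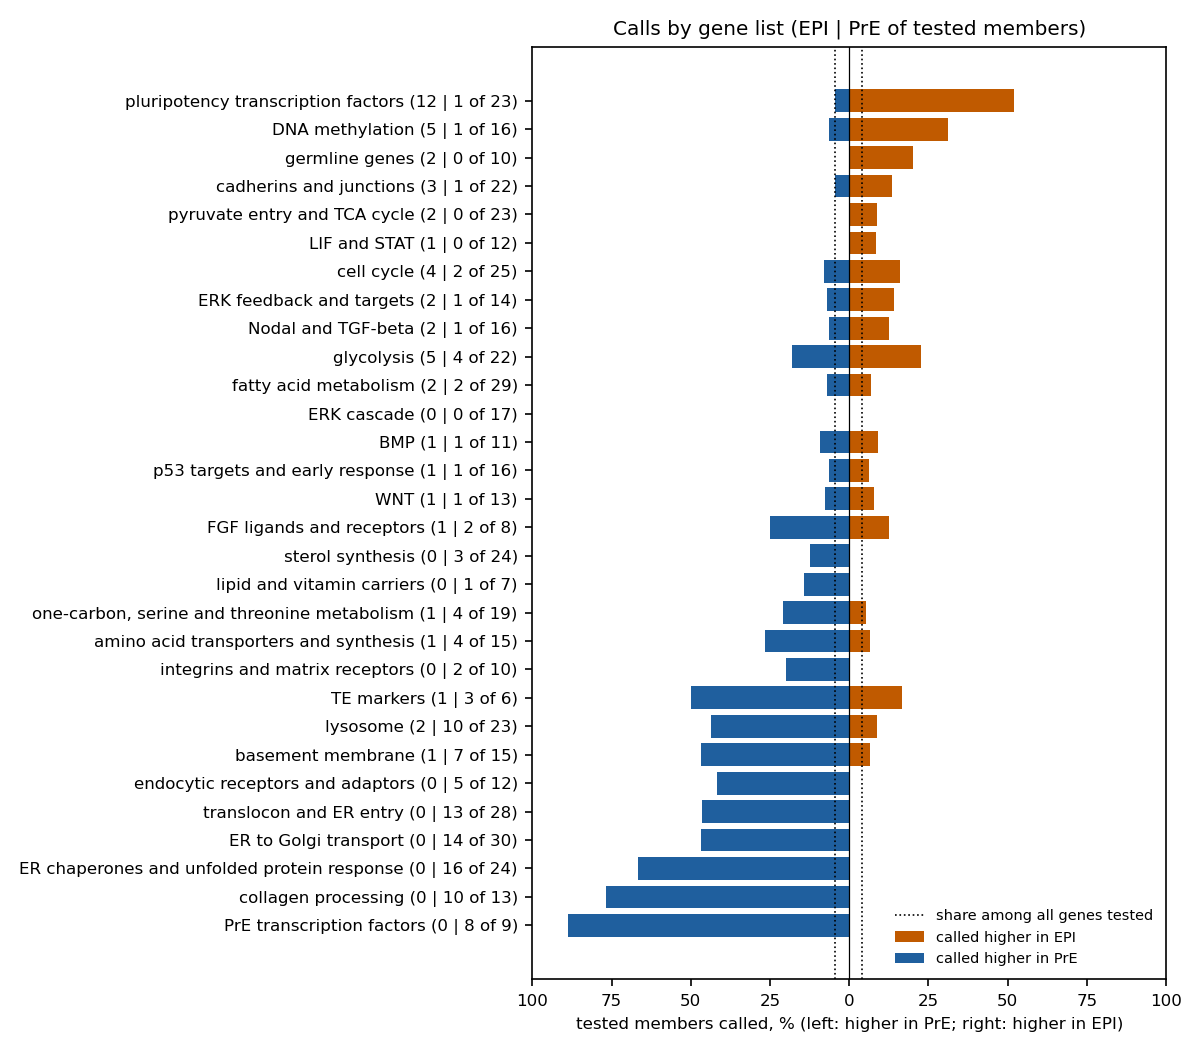
For each gene list the bar to the right gives the percentage of its tested genes called higher in EPI and the bar to the left the percentage called higher in PrE, with the numbers called and tested beside the name and dotted lines at the shares among all genes tested (4.0% and 4.61%). The PrE bars are longest for the PrE transcription factors (8 of 9), collagen processing (10 of 13) and ER chaperones (16 of 24), and the EPI bar is longest for the pluripotency factors (12 of 23).

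Lineage transcription factors were largely called. Of 14 PrE factors listed, 9 passed the filter on low counts and 8 were called, all higher in PrE (4.61% of all genes were), and their median log2 fold change was −6.92. The factors nearly absent from EPI, such as Gata4, passed the filter only through their PrE sums, and the labels came from the same transcriptomes. Their direction and the share called were thus largely fixed in advance. Gata4 (chr14:63198922-63271692, minus strand), a zinc finger factor of endoderm, gave 0, 0.114 and 0.842 CPM as the lowest, median and highest EPI sum and 95.5, 244 and 315 in PrE. The lowest PrE sum thus lay far above the highest EPI sum (219 ± 98.2 against 0.221 ± 0.319 CPM, log2 fold change −8.93, SE 0.78, adjusted p = 0.000423 by edgeR). Gata6 (194 ± 50.3 against 0.988 ± 1.59 CPM, −8.05), Sox7 (187 ± 66.9 against 2.08 ± 3.37, −7.61) and Sox17 (256 ± 124 against 4.77 ± 3.75, −5.73) were called with every embryo left out in turn. Sox17 was the least exclusive of them, with a count in 10 of 37 EPI cells, 6 of which reached 10 CPM.

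Other endoderm factors had lower levels. The pioneer factor Foxa2 had 42.2 ± 24.7 CPM in PrE and 0.24 ± 0.588 in EPI, with a count in 21 of 29 PrE cells, and its call was lost without embryo 4 (adjusted p = 0.0669 by edgeR). Hnf4a, a nuclear receptor of visceral endoderm and liver, ranged from 1.76 to 81.3 CPM in PrE around a median of 17.2 and was found in 16 of 29 cells. The embryos overlapped with those of EPI (0 to 9.84), and the call (adjusted p = 0.0397 by edgeR) was lost without embryo 1, 2, 4, 6 or 7 (up to 0.112). Hhex was tested and not called (adjusted p = 0.298 by edgeR), and Gata5, Sox18, Foxa1 and Foxa3 were among those that did not pass the filter.

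Of 25 pluripotency factors 23 were tested, 12 were called higher in EPI, against 4.0% of all genes, and 1, Klf5, higher in PrE. The number on the EPI side was 6 to 9 with any 1 embryo left out. Factors nearly absent from PrE, such as Otx2, passed the filter only through their EPI sums, so their direction was largely fixed in advance. Nanog gave 145, 271 and 428 CPM as the lowest, median and highest EPI sum and 0, 0.125 and 6.22 in PrE, a complete separation (295 ± 101 against 1.14 ± 2.49, log2 fold change 8.79, SE 0.87, adjusted p = 0.000747 by edgeR). Otx2, a factor of the later EPI, had 53.6 ± 26.9 CPM in EPI and 0.108 ± 0.264 in PrE, and its call was lost without embryo 2 (adjusted p = 0.053 by edgeR). Prdm14, a germ cell and naive pluripotency regulator, had 1854 counts in 16 EPI cells against 1 count in PrE, a ratio per total counts of 1501 (95% interval 269 to 59298), and its call was lost without embryo 4 (adjusted p = 0.0888 by edgeR).

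Other pluripotency genes were graded rather than exclusive. Zfp42 (REX1) had 550 ± 226 CPM in EPI and 144 ± 31 in PrE (3.81-fold), Utf1 511 ± 156 and 194 ± 57.9 (2.64-fold), and the MYB family factor Mybl2 338 ± 88.9 and 105 ± 47.1 (3.23-fold), and all were called. PrE cells kept a measurable level of each, with Zfp42 counts in 27 of 29 cells. Sox2, the partner of OCT4, had 33.4 ± 8.72 and 1.02 ± 0.966 CPM with no overlap, yet its adjusted p was 0.0435 and lay above the threshold without any 1 of the 6 embryos (up to 0.111 by edgeR). Klf5 went the other way and was 2.48-fold higher in PrE (320 ± 59.4 against 129 ± 58 CPM, adjusted p = 0.00609 by edgeR), while the related factor Klf4 was not called (51.4 ± 23.5 and 41.6 ± 17.6).

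Pou5f1 itself, the gene that the study targets, was not called. Its EPI sums were 262 and 147 CPM in the WT embryos and 135, 133, 74.8 and 155 in the HET embryos, and its PrE sums were 57.7 and 131 in WT and 161, 49.6, 69.5 and 100 in HET. WT and HET embryos overlapped in PrE, and in EPI the lower WT value lay within the HET range. EPI and PrE overlapped as well (151 ± 61.3 against 94.8 ± 44.3 CPM, log2 fold change 0.69, SE 0.34, adjusted p = 0.279 by edgeR).

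Promoter windows of 250 bases before to 50 after each RefSeq start (GRCm38.p6) were searched on both strands for the GATA word AGATAA, the octamer word ATGCAAAT that OCT4 and its relatives bind, the SOX word ACAATGG and the HNF4 word CAAAGTCCA. Of the 9762 tested genes 7510 had a window. The octamer word lay in 2.95% of 407 windows of genes called higher in EPI, in 1.25% of 480 windows of genes called higher in PrE and in 1.19% of the 9557 windows of all tested genes. The GATA word lay in 6.14%, 6.46% and 5.99%, and the SOX word in 3.19%, 2.92% and 2.0%. The HNF4 word lay in 0.49%, 0.21% and 0.31%. A match is a description of letters in a window, and binding was not measured.

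Parts of these windows that hold a word are printed for a gene of each factor group and for the vitamin A receptor described below, 5′ to 3′ on the strand of the gene, with the match in capitals. Zfp42 lies at chr8:43307010-43307259 on the minus strand and shows the octamer word in its reverse complement ATTTGCAT. Hnf4a lies at chr2:163506607-163506810 on the plus strand with the GATA word as searched, and Stra6 at chr9:58133825-58134014 on the plus strand with its reverse complement TTATCT.
Zfp42: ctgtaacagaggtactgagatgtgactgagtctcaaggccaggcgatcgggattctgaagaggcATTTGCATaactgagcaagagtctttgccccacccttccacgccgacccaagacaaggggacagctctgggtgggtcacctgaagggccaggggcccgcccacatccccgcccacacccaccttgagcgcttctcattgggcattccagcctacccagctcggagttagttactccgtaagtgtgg
Hnf4a: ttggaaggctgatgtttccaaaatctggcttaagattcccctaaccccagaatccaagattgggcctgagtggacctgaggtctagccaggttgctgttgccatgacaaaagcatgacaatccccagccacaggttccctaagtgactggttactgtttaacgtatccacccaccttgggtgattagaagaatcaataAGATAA
Stra6: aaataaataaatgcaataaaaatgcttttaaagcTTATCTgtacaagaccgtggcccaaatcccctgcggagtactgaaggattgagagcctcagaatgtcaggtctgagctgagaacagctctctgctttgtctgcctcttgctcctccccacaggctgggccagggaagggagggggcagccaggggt

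Genes of the FGF pathway were called among its ligands, receptors and targets. Fgf4, the ligand (chr7:144847367-144865243, plus strand), had 4590 counts in 25 of 37 EPI cells and 0 counts in 29 PrE cells, so its level per total counts was at least 1238-fold higher in EPI when 3 counts over all PrE cells are taken as the floor. Its EPI sums were 15.1, 78.4 and 138 CPM (lowest, median and highest). A gene without counts in PrE passes the filter on low counts only if all EPI sums hold it. Presence in every embryo was thus a condition of testing. Fgfbp1, a secreted protein that binds FGFs, was likewise at 0 counts in PrE (at least 1799-fold higher in EPI, with a count in 27 EPI cells).

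On the PrE side stood receptors and another ligand. Fgfr3 had 4010 counts in 21 of 29 PrE cells and 1 count in 1 of 37 EPI cells (ratio 4955, 95% interval 889 to 195750). It did not pass the filter, which asks for enough counts in as many sums as a lineage has embryos, and was not tested. A gene nearly absent from EPI is thus dropped when 1 PrE sum falls short. Fgfr2 gave 0, 0 and 10.9 CPM in EPI and 25.2, 38 and 55.5 in PrE, without overlap (log2 fold change −6.66, adjusted p = 0.0203 by edgeR, lost without embryo 1, 2, 4 or 7 with values up to 0.0679). Fgf3, an FGF ligand, had 72.4 ± 35.1 CPM in PrE and 0.524 ± 1.28 in EPI (−7.74, adjusted p = 0.0101 by edgeR) and was found in 20 of 29 PrE cells against 1 of 37 EPI cells. Of 8 tested FGF ligands and receptors, Fgf4, Fgfr2 and Fgf3 were called, against 8.60% of all genes. Fgfr1 leaned to EPI (32.6 ± 14.3 against 7.66 ± 9.74 CPM, adjusted p = 0.121), and Fgf10 (103 ± 41 against 15.1 ± 15.3, 0.0895), Klb (135 ± 47.7 against 14.3 ± 16.4, 0.106) and Fgfr4 (26.7 ± 17.2 against 2.24 ± 3.8, 0.129) leaned to PrE without passing the edgeR test.

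None of the 17 genes of the cascade from Frs2 to Mapk3 was called, with 7 above 0 and a median log2 fold change of −0.09. With any 1 embryo left out 0 or 1 was called, and DESeq2 called 4, of which 2 in each direction. The adaptor gene Grb2 (38 ± 11.1 in EPI against 7.57 ± 7.66 CPM in PrE, adjusted p = 0.162) and the kinase gene Braf (47.8 ± 31.7 against 14.8 ± 13, adjusted p = 0.208) were higher on average in EPI and did not pass the edgeR test. Of 14 tested feedback genes and targets of the pathway, the ETS factors Etv5 and Etv1 were called higher in EPI and Flrt3 higher in PrE. Among all genes 4.0% were called higher in EPI and 4.61% higher in PrE. Etv5 was even across embryos in EPI (269, 306 and 339 CPM as lowest, median and highest) and was 1.91, 28 and 52.4 in PrE (log2 fold change 4.02, SE 0.68, adjusted p = 0.00999 by edgeR). Flrt3, a membrane protein that also interacts with FGF receptors, had 788 ± 193 CPM in PrE and 15.7 ± 30 in EPI, and its call (adjusted p = 0.0165 by edgeR) was lost without embryo 5 or 7 (0.0565 and 0.0511). The phosphatase gene Dusp6 was not called (77.2 ± 32.9 in EPI against 15.4 ± 19 CPM in PrE, adjusted p = 0.224 by edgeR), nor were the Sprouty genes, so the targets did not share a direction.

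Pdgfra, the receptor that marks the PrE, gave 0, 0 and 3.95 CPM in EPI and 92.4, 200 and 251 in PrE (log2 fold change −8.65, adjusted p = 0.00142 by edgeR). It had a count in 29 of 29 PrE cells and 2 of 37 EPI cells. Its ligand gene Pdgfa was found in 34 EPI and 17 PrE cells and had 79.1 ± 33.8 against 30.3 ± 26.8 CPM (adjusted p = 0.0848 by edgeR, not called).

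Other signalling pathways had called genes as well, from short lists. In the Nodal pathway the co-receptor gene Tdgf1 (Cripto, chr9:110939603-110946158, minus strand) had the largest fitted difference toward EPI of all genes named by the rule for leading genes. Its sums were 968, 1998 and 2590 CPM in EPI and 0.107, 0.233 and 49.9 in PrE (1970 ± 602 against 8.49 ± 20.3, log2 fold change 11.02, SE 1.31, adjusted p = 0.00186 by edgeR). The TGF-beta ligand Gdf3 was 6-fold higher in EPI (232 ± 74.8 against 38.7 ± 25.5 CPM, adjusted p = 0.0223, lost without embryo 1, 5 or 7 with values up to 0.0753 by edgeR).

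The signal transducer Smad2 was 6.98-fold higher in PrE (164 ± 66.9 against 23.4 ± 9.49 CPM, log2 fold change −2.81, adjusted p = 0.00283 by edgeR). Nodal itself (33.7 ± 21.8 in EPI against 15.3 ± 21.8 CPM in PrE, adjusted p = 0.472) and the antagonist Lefty2 (306 ± 133 against 22.1 ± 35, adjusted p = 0.0529) were not called by edgeR. The related gene Lefty1, also not called, leaned the other way, with 2437 counts in 25 EPI cells and 9082 in 13 PrE cells. In all, 3 of 16 tested genes of this list were called, against 8.60% of all genes.

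BMP and WNT each showed 1 called gene per lineage. Bmp4, a BMP ligand, had 178 ± 65.8 CPM in EPI and 5.57 ± 7.82 in PrE (adjusted p = 0.025, lost without embryo 2, 5, 6 or 7 with values up to 0.0822 by edgeR), and Bmper, a secreted BMP-binding protein, had 66.4 ± 42.8 in PrE and 0.48 ± 1.18 in EPI (adjusted p = 0.0101 by edgeR). The BMP targets were not called and differed in sign. Id3 had 278 ± 117 CPM in EPI and 38.1 ± 32.6 in PrE (adjusted p = 0.0623 by edgeR), whereas Id1 had 10.4 ± 10.3 and 48.7 ± 57.3 (adjusted p = 0.599) and Id2 8.22 ± 12.9 and 63.7 ± 40 (adjusted p = 0.131). Among 13 tested WNT genes, the secreted antagonists Dkk1 and Notum stood on opposite sides. Dkk1 gave 0, 0.0648 and 5.85 CPM in EPI and 107, 342 and 649 in PrE (log2 fold change −9.11, adjusted p = 0.000958 by edgeR). Notum, which removes the lipid from WNT proteins, had 1782 counts in 25 EPI cells and 1 count in PrE, a ratio of 1442 (95% interval 259 to 56996), and its call was lost without embryo 7 (adjusted p = 0.0999 by edgeR). In the LIF and STAT list only Socs2, a feedback inhibitor, was called of 12 tested (125 ± 19 in EPI against 53.7 ± 17.5 CPM, adjusted p = 0.0201, lost without embryo 2, 4, 5 or 7 with values up to 0.0664 by edgeR). The share of all genes called was 8.60%.

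**Figure D3:**
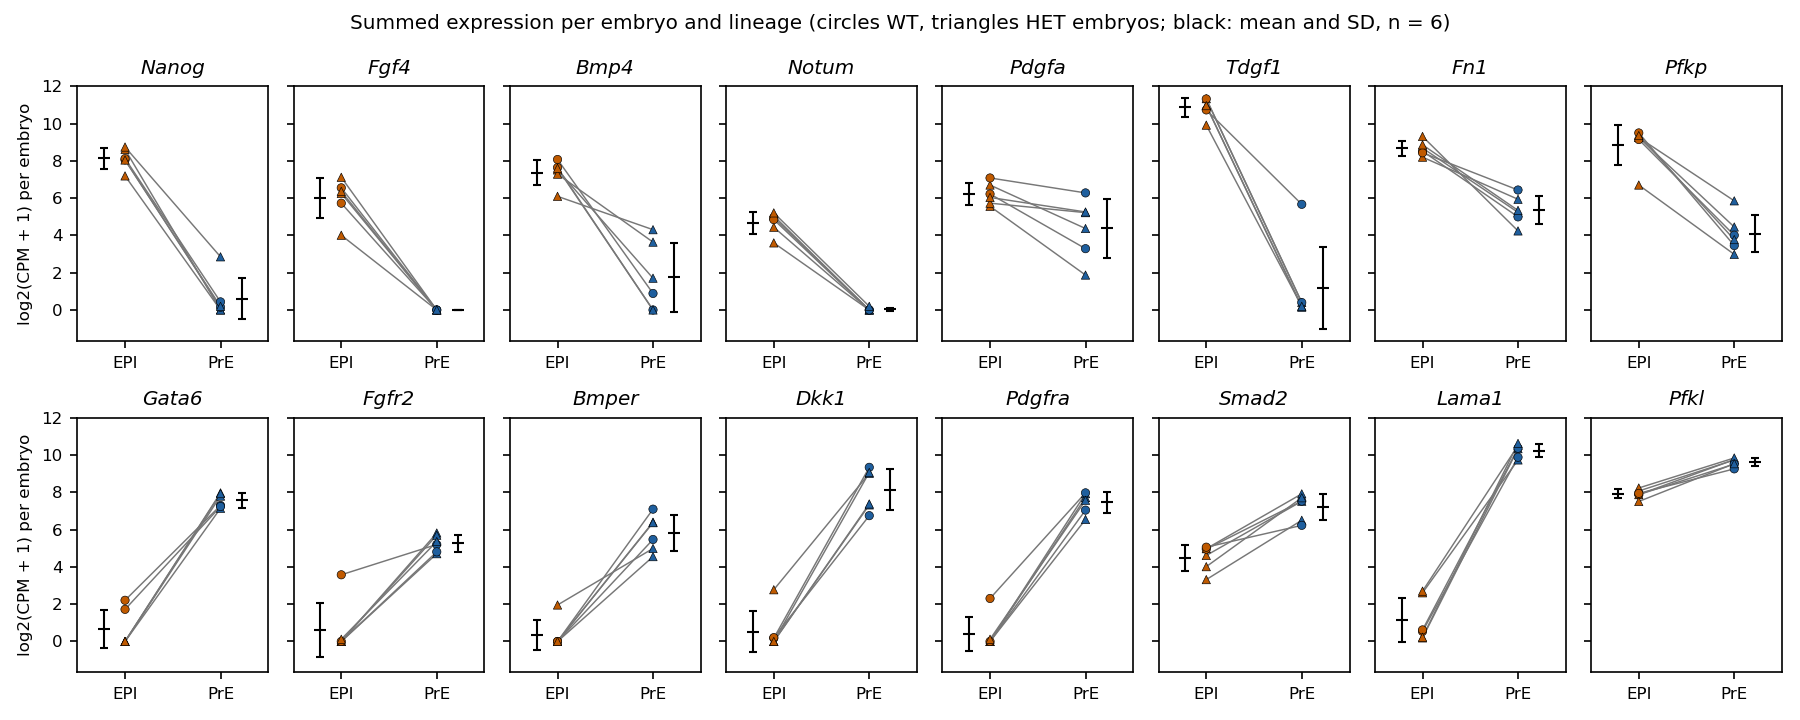
For selected genes each panel plots log2(CPM + 1) of the EPI and the PrE sum of every embryo, joined by a line within an embryo, with circles for WT and triangles for HET embryos and the mean and SD (n = 6) in black. Nanog lies between 145 and 428 CPM in EPI and at or below 6.22 in PrE, Gata6 at or below 3.63 in EPI and at 141 or more in PrE, and the lines of WT and HET embryos run the same way.

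The leading genes of each lineage beyond these were mostly secreted or membrane proteins. Trh, the precursor of thyrotropin-releasing hormone (chr6:92242061-92244650, minus strand), gave 222, 866 and 1526 CPM in EPI and 0, 0.125 and 9.87 in PrE (893 ± 429 against 1.76 ± 3.97, log2 fold change 10.02, SE 0.84, adjusted p = 0.000345 by edgeR). Igfbp2, a secreted binding protein of insulin-like growth factors, had 16649 counts in 32 EPI cells and 0 in PrE, at least 4492-fold higher, and Enox1 had 7166 and 0, at least 1933-fold higher. Igfbp2 and Enox1 were present in all 6 EPI sums, which the filter on low counts required of any gene without counts in PrE. The secreted phospholipase gene Pla2g10 (6142 counts in 32 EPI cells against 1 count, ratio 4971, 95% interval 892 to 196370) and Morc1, a germline chromatin gene (8020 in 35 cells against 1, ratio 6491, interval 1165 to 256400), were as exclusive.

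Timd2, a membrane receptor of the TIM family (chr11:46668960-46707061, minus strand), led on the PrE side. Its sums were 0, 0.0324 and 0.173 CPM in EPI and 215, 446 and 817 in PrE (log2 fold change −10.63, SE 0.36, adjusted p = 7.61e-06 by edgeR). The water channel gene Aqp8 was the most even of the group, with 655, 800 and 972 CPM in PrE and 0, 0.108 and 3.83 in EPI (−10.57, adjusted p = 0.000214 by edgeR). Pth1r, the receptor of parathyroid hormone-related peptide, had 415 ± 205 CPM in PrE and 1.15 ± 2.71 in EPI (−9.61). The pepsinogen gene Pga5 had 292 ± 147 and 0.0913 ± 0.097 CPM (−9.80), and Eva1a had 6494 counts in 27 PrE cells against 1 count in EPI (ratio 8024, interval 1440 to 316980). Each of these PrE genes was called with every embryo left out in turn.

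The basement membrane list split by protein. Of 30 genes 15 passed the filter, and 7 were called higher in PrE (6 or 7 with any 1 embryo left out, and 4.61% of all genes) and 1 higher in EPI, beside a median log2 fold change of −2.79. The 7 held the 3 chains of laminin 111 and both chains of the common type IV collagen. Lama1 (chr17:67697259-67822647, plus strand) gave 0.143, 0.495 and 5.51 CPM in EPI and 856, 1312 and 1582 in PrE, and no gene of the list differed more (log2 fold change −9.79, SE 0.88, adjusted p = 0.000471 by edgeR). Lamb1 had 1889 ± 324 CPM in PrE and 15.9 ± 14.8 in EPI (−7.43) and Lamc1 979 ± 143 and 45.5 ± 19.1 (−4.53).

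The 3 laminin chains thus differed in how much EPI kept. Lamc1 had a count in 31 of 37 EPI cells, Lamb1 in 23 and Lama1 in 12. Per kilobase of exon, Lamc1 made up 79.7% ± 12.8 of Lamc1 plus Lamb1 in EPI and 38.5% ± 4.76 in PrE (n = 6, description). Col4a1 (531 ± 217 against 3.16 ± 4.09 CPM, −7.76) and Col4a2 (330 ± 129 against 4.72 ± 7.19, −7.74) were called with every embryo left out, and the perlecan gene Hspg2 (127 ± 27.8 against 12.1 ± 14.3) lost its call without embryo 1, 2, 4, 5 or 7 (adjusted p up to 0.117 by edgeR). Sparc, a collagen-binding matrix protein, was already abundant in EPI (248, 475 and 592 CPM) and higher in PrE (2275, 3077 and 4197, 6.83-fold, adjusted p = 2.33e-05 by edgeR).

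Fibronectin was the exception in direction. Fn1 gave 293, 389 and 635 CPM in EPI and 17.9, 38.2 and 85.7 in PrE (419 ± 121 against 45.2 ± 24.2, 9.28-fold, log2 fold change 3.32, SE 0.41, adjusted p = 0.00225 by edgeR), and the ranges did not meet. The linker genes Nid1 (71.8 ± 29.2 in EPI and 80.4 ± 22.6 in PrE) and Nid2 (162 ± 62 and 72.1 ± 56.3) and the chain gene Lama5 (50.2 ± 22.4 and 25.3 ± 11.5) were not called. Among 10 tested integrin and matrix receptor genes, Itga5, the fibronectin receptor subunit, was 10.3-fold higher in PrE (119 ± 72.2 against 11.6 ± 9.87 CPM, adjusted p = 0.013 by edgeR). The syndecan gene Sdc4 was 7.21-fold higher in PrE (adjusted p = 0.0188, lost without embryo 5 or 7 with values of 0.0616 and 0.053 by edgeR), and the shared subunit gene Itgb1 was not called (122 ± 25.3 against 80.1 ± 28.4 CPM). Itga5 and Sdc4 were the 2 called genes of the 10, where 4.61% of all genes were called higher in PrE.

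Enzymes that fold and modify collagen were mostly called. Of 13 tested genes 10 were called, all higher in PrE, against 4.61% of all genes, and 8 to 10 with any 1 embryo left out. P4hb (chr11:120560298-120573253, minus strand), which is both a disulphide isomerase and the shared subunit of prolyl 4-hydroxylase, gave 718, 903 and 996 CPM in EPI and 2926, 3482 and 4281 in PrE (4.04-fold, log2 fold change −2.02, SE 0.09, adjusted p = 1.37e-05 by edgeR). Its catalytic partner P4ha1 was 11.8-fold higher in PrE (642 ± 195 against 54.5 ± 21.8 CPM), P4ha2 39.1-fold (565 ± 178 against 14.4 ± 26.3), and the collagen chaperone Serpinh1 20.5-fold (524 ± 127 against 25.6 ± 11.2). The lysyl hydroxylase genes Plod2 (35.7-fold) and Plod3 (18.5-fold) were called as well, whereas Plod1 was not. The smaller differences were those of Crtap (2.59-fold) and the cyclophilin gene Ppib (2.66-fold), which act together in prolyl 3-hydroxylation.

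Many genes of the route of secreted proteins were higher in PrE. Over 3 lists, namely entry into the endoplasmic reticulum (ER), transport from ER to Golgi and ER chaperones with the unfolded protein response, 43 of 82 tested genes (52.4%) were called higher in PrE against 4.61% of all genes, 0 were called higher in EPI, and 39 were not called. In 79 (96.3%) the log2 fold change was below 0, as in 47.2% of all genes. The median log2 fold change was −0.78 for ER entry (13 of 28 called), −0.92 for ER to Golgi transport (14 of 30) and −1.64 for chaperones (16 of 24), beside 0.06 for all genes. With any 1 embryo left out these counts were 6 to 11, 7 to 12 and 16, and in the HET embryos alone they were 6, 3 and 16.

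Among chaperones, Hspa5 (BiP) gave 563, 1252 and 1467 CPM in EPI and 3008, 4143 and 4630 in PrE (3.58-fold, log2 fold change −1.89, SE 0.17, adjusted p = 0.000459 by edgeR). Hsp90b1 (3.51-fold), Calr (3.09-fold), Pdia6 (2.99-fold), Pdia4 (2.78-fold) and Pdia3 (2.38-fold), all folding factors of the ER lumen, lay in a narrow band, and Dnajc3, a co-chaperone and kinase inhibitor, stood out at 12.8-fold (327 ± 103 against 25.6 ± 14.2 CPM). Xbp1, the transcription factor of the unfolded protein response, was 4.29-fold higher in PrE (544 ± 79.4 against 127 ± 55.2 CPM, adjusted p = 0.00301 by edgeR), and its target Herpud1 4.78-fold (384 ± 165 against 80.4 ± 20.8). Ddit3 (CHOP), the pro-apoptotic arm, was not called (99.9 ± 43.7 against 49.6 ± 24.9 CPM, adjusted p = 0.0822 by edgeR).

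At the entry to the ER, the pore subunit gene Sec61a1 gave 241, 350 and 417 CPM in EPI and 979, 1206 and 1453 in PrE (3.61-fold, adjusted p = 0.000345 by edgeR), and Rpn1 of the oligosaccharyltransferase was 2.9-fold and Ssr3 of the translocon-associated complex 2.96-fold higher. Between ER and Golgi, the cargo receptor Surf4 was 4.05-fold higher in PrE (1132 ± 114 against 280 ± 58 CPM, adjusted p = 0.00012 by edgeR). Of the receptors that return ER proteins, Kdelr3 differed 34.1-fold (194 ± 99.6 against 5.69 ± 7.42 CPM) and was found in 26 of 29 PrE and 7 of 37 EPI cells, while Kdelr2 differed 2.51-fold (304 ± 24.7 against 121 ± 45.8) and was found in all 66 cells.

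**Figure D4:**
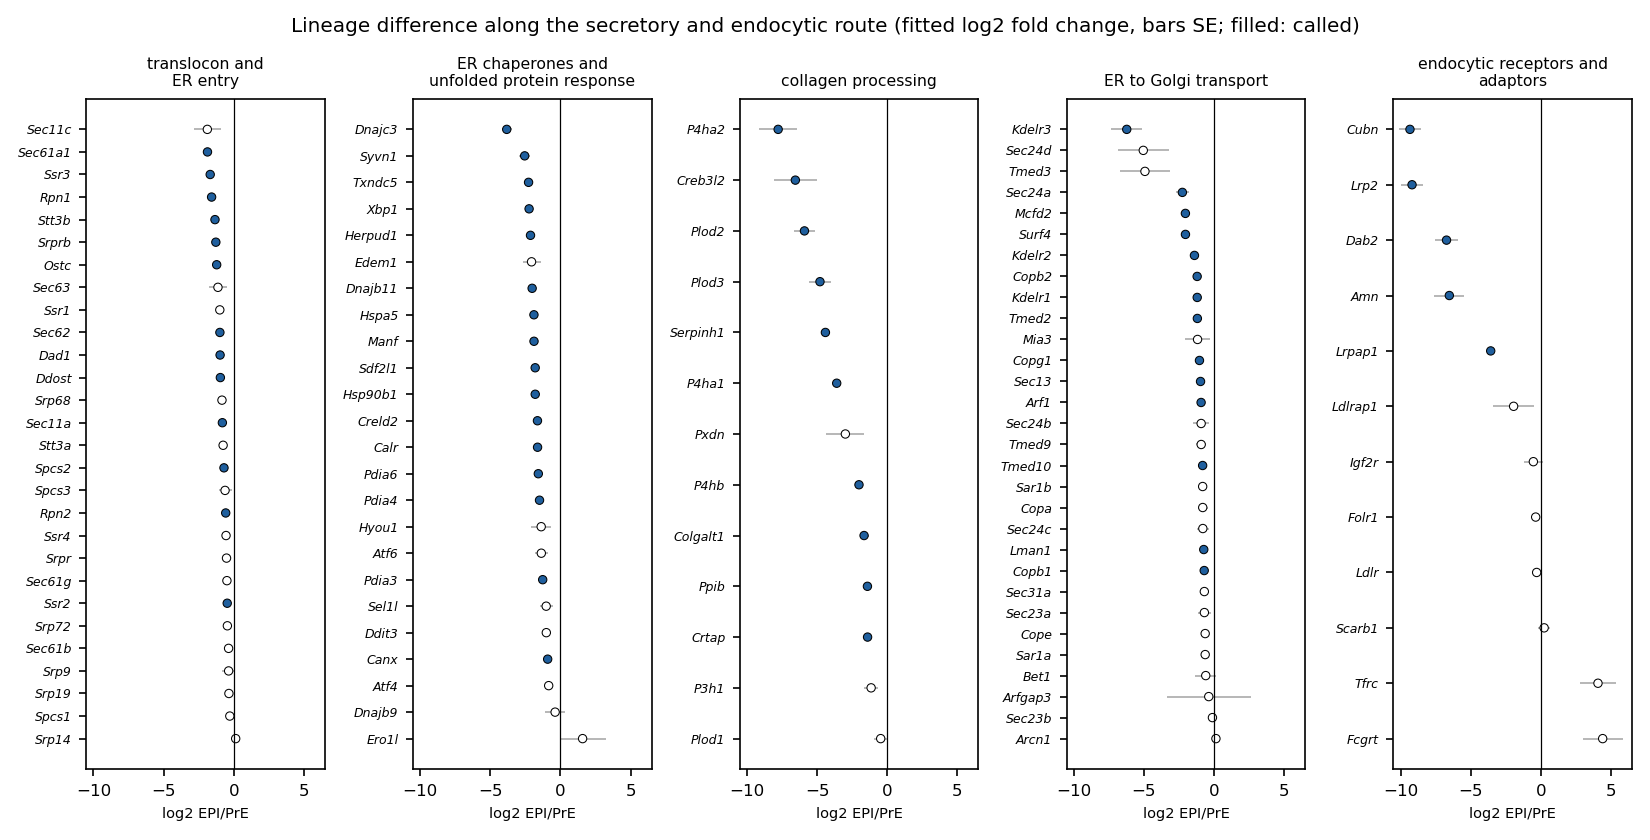
Points give the fitted log2 fold change (EPI minus PrE) of each tested gene of the lists along the secretory and endocytic route, bars its SE, with filled points for called genes. Most points lie left of 0, the chaperones around the list median of −1.64, and the endocytic receptors Lrp2, Cubn, Dab2 and Amn below −6.

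Uptake genes higher in PrE were those of the megalin and cubilin receptors. Of 12 tested endocytic genes 5 were called, all higher in PrE (4.61% of all genes), also with any 1 embryo left out. They were the multiligand receptors Lrp2 (megalin) and Cubn (cubilin), the cubilin partner Amn, the clathrin adaptor Dab2 and Lrpap1, the ER chaperone of megalin. Cubn gave 0, 0.603 and 4.86 CPM in EPI and 272, 841 and 1411 in PrE (log2 fold change −9.33, adjusted p = 0.000423 by edgeR). Lrp2 was the more uneven, with 87.8, 784 and 1533 CPM in PrE against 0, 0.54 and 3.56 in EPI (−9.18, adjusted p = 0.000342 by edgeR). Lrpap1 (chr5:35091501-35105766, minus strand) was in every cell of both lineages and was 11.6-fold higher in PrE (3026, 4231 and 4688 against 230, 359 and 462 CPM, adjusted p = 0.000117 by edgeR).

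Cargo genes of the later yolk sac were mostly too low to test. Of 17 carriers of lipids and vitamins, 10 did not pass the filter, among them Afp, Ttr, Apob, Apoa1 and Rbp4. Apob and Rbp4 had no count in any cell. Ttr, the carrier of thyroid hormone, had 128 counts in 8 PrE cells and 0 in EPI (at least 52.7-fold higher in PrE at the floor), Apoa1 had 82 counts in 3 PrE cells and 0 in EPI, and Afp had 81 counts in 1 EPI cell and 0 in PrE. Of the tested carriers, Apom had 66.4 ± 80.6 CPM in PrE and 11.7 ± 14.9 in EPI (not called, adjusted p = 0.426 by edgeR) and Apoe was abundant in both lineages (2018 ± 199 CPM in EPI and 1753 ± 699 in PrE, not called). Stra6, the membrane receptor for retinol-binding protein whose promoter window is printed above, was the only called gene of the list. It had 6201 counts in 17 of 29 PrE cells against 1 count in EPI, a ratio of 7662 (95% interval 1375 to 302680), and its PrE sums ran from 34.2 through 94.5 to 282 CPM.

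Lysosomal genes were called in both directions. Of 23 tested genes 10 were called higher in PrE (7 to 12 with any 1 embryo left out, and 4.61% of all genes) and 2 higher in EPI (4.0% of all genes). The cathepsin gene Ctsz was 24-fold higher in PrE (1372 ± 559 against 57.2 ± 37.6 CPM), Ctsl 9.07-fold (3430 ± 1090 against 378 ± 155) and Ctsb 2.41-fold (455 ± 137 against 188 ± 51.8), and the membrane protein Lamp1 2.4-fold with little spread (1075 ± 49.2 against 447 ± 41.9, adjusted p = 0.00028 by edgeR). The progranulin gene Grn went the other way, with 85.9, 106 and 255 CPM in EPI and 9.48, 24.5 and 76.1 in PrE (log2 fold change 2.18, adjusted p = 0.00527 by edgeR).

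Glycolytic genes were called in both directions. Of 22 tested 5 were called higher in EPI and 4 higher in PrE, against 4.0% and 4.61% of all genes, with a median log2 fold change of −0.01. Pfkp, the platelet form of phosphofructokinase (chr13:6579768-6648777, minus strand), gave 103, 610 and 724 CPM in EPI and 6.91, 13.9 and 56.9 in PrE (26.7-fold, log2 fold change 4.86, SE 0.41, adjusted p = 0.000359 by edgeR). Pfkl, the liver form, gave 182, 240 and 301 CPM in EPI and 613, 800 and 921 in PrE (log2 fold change −1.69, SE 0.13, adjusted p = 0.000214 by edgeR). Per kilobase of exon, Pfkp made up 49.9% ± 16.5 of the pair in EPI and 1.22% ± 0.921 in PrE (n = 6), with the lowest EPI embryo at 18% and the highest PrE embryo at 2.99%. In single cells Pfkp had a count in 36 of 37 EPI and 12 of 29 PrE cells, and Pfkl in 35 and 29.

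The lactate dehydrogenase genes also differed in direction. Ldhb was found in 27 EPI and 4 PrE cells (54.3 ± 45.5 against 2.67 ± 6.13 CPM, adjusted p = 0.0164, 0.0553 without embryo 7 by edgeR), and Ldha in every cell, 1.55-fold higher in PrE (1711 ± 634 against 1101 ± 552, adjusted p = 0.0101 by edgeR). Ldha remained the main form in EPI, since Ldhb was 9.1% ± 6.46 of the pair per kilobase there and 0.357% ± 0.827 in PrE. The glucose transporter gene Slc2a3 was 5.58-fold higher in PrE (1109 ± 340 against 199 ± 69.4 CPM, log2 fold change −2.48, SE 0.13, adjusted p = 3.69e-05 by edgeR), and Slc2a1 was not called (354 ± 182 against 330 ± 92.8). Aldoa (1.6-fold, adjusted p = 0.00829) and Gpi1 (1.89-fold, adjusted p = 0.0101) were higher in EPI by edgeR.

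Of 23 genes of pyruvate entry and the TCA cycle 2 were called, both higher in EPI, against 4.0% of all genes. Sdhb, the iron-sulphur subunit of succinate dehydrogenase, was 2.07-fold higher (418 ± 106 against 202 ± 53.1 CPM, adjusted p = 0.00431 by edgeR), and the pyruvate carrier subunit gene Mpc1 4.62-fold (61 ± 19.7 against 13.2 ± 3.28, adjusted p = 0.0152, lost without embryo 2, 4 or 7 with values up to 0.0636 by edgeR).

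Of the 24 genes of sterol synthesis, all tested, 3 were called, all higher in PrE (2 to 5 with any 1 embryo left out, 1 in the HET embryos alone, and 4.61% of all genes). In 21 the log2 fold change was below 0, as in 47.2% of all genes, with a median of −1.06. Cyp51, the lanosterol demethylase, was the clearest (443 ± 118 against 109 ± 34 CPM, 4.07-fold, adjusted p = 0.00051 by edgeR), and DESeq2 called 12 of the list. Fabp3, a fatty acid binding protein that also stands in the TE list, was 11.1-fold higher in PrE (690, 1019 and 1405 against 57.6, 74.2 and 176 CPM, adjusted p = 2.78e-05 by edgeR).

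Of 15 tested amino acid transport and synthesis genes 1 was called higher in EPI and 4 higher in PrE, against 4.0% and 4.61% of all genes. Slc7a3, a cationic amino acid transporter, gave 116, 512 and 1366 CPM in EPI and 0, 0.213 and 20.7 in PrE (log2 fold change 8.77, SE 1.15, adjusted p = 0.00305 by edgeR). Its relative Slc7a1 was 2.75-fold higher in PrE (148 ± 22.2 against 53.8 ± 16.9 CPM, adjusted p = 0.00527 by edgeR). Per kilobase Slc7a3 was 95.6% ± 3.68 of the pair in EPI and 6.81% ± 14.8 in PrE, where 1 embryo reached 36.8%. The glutamate transporter gene Slc1a3 (6.7-fold) and the glutamine synthetase gene Glul (3.76-fold) were higher in PrE.

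Of 19 tested genes of one-carbon, serine and threonine metabolism 1 was called higher in EPI and 4 higher in PrE, against 4.0% and 4.61% of all genes. The median log2 fold change was 0.34, and 12 of the 19 lay above 0. In serine synthesis Phgdh, its first enzyme, was higher in PrE at 394 ± 112 against 92 ± 41 CPM (4.28-fold, adjusted p = 0.0101 by edgeR). Psat1, which follows it, was higher in PrE at 423 ± 98.1 against 210 ± 61.5 (2.02-fold, adjusted p = 0.00186 by edgeR), and Psph of the same path was not called. Glycine cleavage did not move as a unit. Its aminomethyltransferase gene Amt was 3-fold higher in EPI (adjusted p = 0.0233) and its carrier gene Gcsh 1.87-fold higher in PrE (adjusted p = 0.0166), and the calls were lost without embryo 2, 4, 5, 6 or 7 (up to 0.0792) and without embryo 2 or 7 (up to 0.0571), all by edgeR. Tdh, the threonine dehydrogenase gene of mouse pluripotent cells, was not called (421 ± 103 in EPI against 127 ± 116 CPM in PrE, adjusted p = 0.2 by edgeR).

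**Figure D5:**
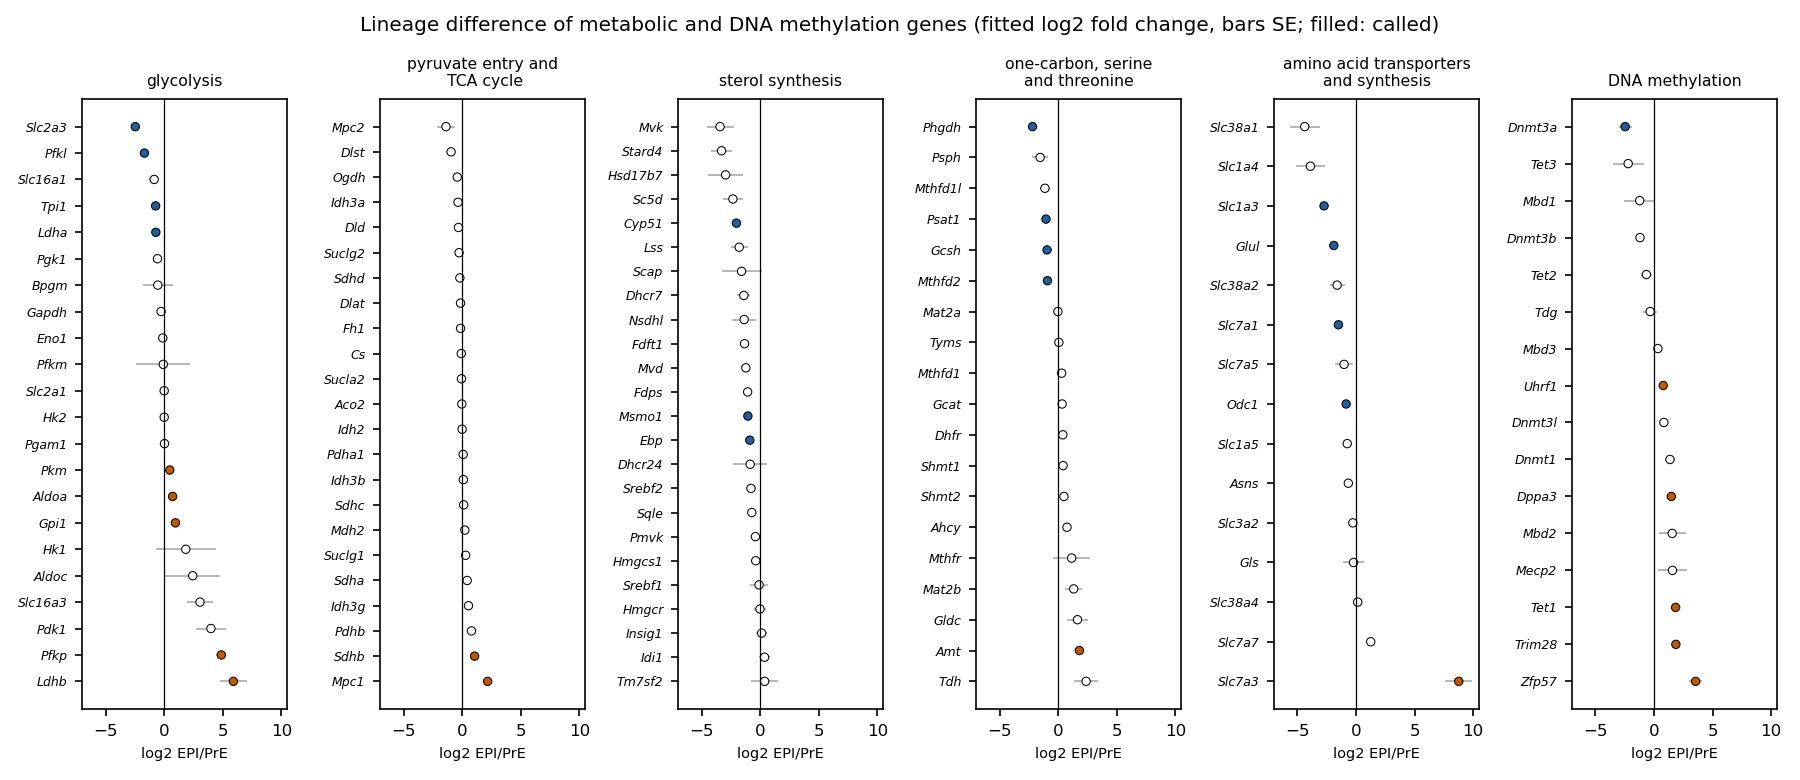
Points give the fitted log2 fold change (EPI minus PrE) of each tested gene of the metabolic and DNA methylation lists, bars its SE, with filled points for called genes. Glycolysis spreads to both sides of 0, from Ldhb and Pfkp at 5.90 and 4.86 to Slc2a3 at −2.48. The pyruvate entry and TCA cycle list has a median of −0.04, with its called genes Mpc1 and Sdhb to the right of 0.

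Of 16 tested genes of DNA methylation, 5 were called higher in EPI (2 to 4 with any 1 embryo left out, and 4.0% of all genes) and 1 higher in PrE. Trim28 (KAP1), a co-repressor, was 3.39-fold higher in EPI (894 ± 127 against 264 ± 113 CPM, adjusted p = 0.00474 by edgeR) and its partner at imprinted loci, Zfp57, 9.74-fold (119 ± 46.9 against 12.3 ± 9.06, adjusted p = 0.00692 by edgeR). The dioxygenase gene Tet1 was 3.41-fold higher in EPI (adjusted p = 0.0181, 0.0642 without embryo 7 by edgeR). Its relative Tet3 (3.08 ± 2.8 CPM in EPI and 10.9 ± 7.16 in PrE, adjusted p = 0.392 by edgeR) and the glycosylase gene Tdg (18.4 ± 16.1 and 23.2 ± 21.3, adjusted p = 0.82 by edgeR) were not called. Of the Dnmt3 family genes, Dnmt3a was 4.41-fold higher in PrE (305 ± 97.1 against 69.2 ± 50.5 CPM, adjusted p = 0.0297, lost without embryo 1, 5, 6 or 7 with values up to 0.0873 by edgeR), and Dnmt3b (637 ± 300 against 277 ± 156, 0.0529) and Dnmt3l (209 ± 68.9 against 379 ± 139, 0.0691) were not called. Of 10 tested germline genes, Morc1 and Tdrd12 were called, both higher in EPI (4.0% of all genes), with Tdrd12 at 2612 counts in 19 EPI cells against 1 in PrE (ratio 2114, 95% interval 379 to 83528, adjusted p = 0.00154, 0.0608 without embryo 4 by edgeR).

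Of 25 cell cycle genes 6 were called, 4 higher in EPI and 2 higher in PrE, against 4.0% and 4.61% of all genes. Subunit genes of the replicative helicase made up the EPI side, of which Mcm6 was 2.36-fold higher (814 ± 144 against 345 ± 143 CPM, adjusted p = 0.00599 by edgeR), and Mcm4, Mcm5 and Mcm7 (1.66-fold to 1.96-fold) each lost their call without some embryo (adjusted p up to 0.101 by edgeR). Cyclin A2 (Ccna2) was 1.81-fold higher in PrE (399 ± 87.2 against 220 ± 29.6 CPM, adjusted p = 0.0101 by edgeR). The apoptosis gene Bax was 2.94-fold higher in EPI (231 ± 70.6 against 78.7 ± 18.3 CPM, adjusted p = 0.00304 by edgeR), with no overlap of the sums. It was the 1 gene called higher in EPI of 16 tested p53 targets and early response genes, and Junb the 1 higher in PrE. Their median log2 fold change was −0.16, and 14 were not called. Of 22 tested junction genes, the P-cadherin gene Cdh3 was higher in EPI (54.9 ± 34 against 1.09 ± 2.55 CPM, adjusted p = 0.00815 by edgeR) and was called with every embryo left out. Pecam1, higher in EPI, lost its call without embryo 2, 5 or 7 (adjusted p up to 0.0651 by edgeR) and Cldn7, higher in PrE, without embryo 1, 2, 4, 5 or 6 (up to 0.115), and the loss for Cldn4 is given above. The junction list thus had 3 genes called higher in EPI and 1 higher in PrE, against 4.0% and 4.61% of all genes.

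The lineage difference was also compared between the WT and the HET embryos. The interaction of lineage and genotype was called for 0 of 9762 genes by edgeR with the embryo block, with 439 genes at an unadjusted p under 0.05. Without the block edgeR called 2 genes, Gata6 (adjusted p = 0.0218) and Acsl5 (adjusted p = 0.0182), and DESeq2 called 131. For Gata6 the EPI sums were 3.63 and 2.3 CPM in the WT embryos and 0 in each of the 4 HET embryos, and the PrE sums were 156 and 150 in WT and 141, 222, 244 and 251 in HET, so the WT values stood among the HET values in PrE. Within the 4 HET embryos 310 genes were called and within the 2 WT embryos 5, namely Trh and Slc7a3 higher in EPI and Cubn, Aqp8 and Lama1 higher in PrE, and all 5 were among the 840.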

How the data were processed

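The authors sequenced Smart-seq2 libraries of single cells, aligned read pairs to GRCm38 with STAR and counted them per Ensembl gene with HTSeq. The deposited values are raw counts per gene and cell, with no normalization, after the authors' quality control, and were checked to be whole numbers over 49671 genes, of which 49412 had a gene record used for symbols and coordinates. Over the 66 cells 3.79% of read pairs fell outside genes, 12.2% were ambiguous between genes and 23.9% aligned to several places, and none of these enter the counts. Genes with near-identical copies can lose counts in this way.

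Cell, embryo, genotype and lineage came from the labels. Counts were summed per embryo and lineage, filtered with filterByExpr (9762 genes kept), scaled by trimmed mean of M values and tested with edgeR 4.0.16 (R 4.3.3, limma 3.58.1) by the quasi-likelihood test with the embryo as a block, a prior count of 2, and Benjamini-Hochberg adjustment at 0.05. Both sums of a pair come from the same embryo, so the embryo pairs them, although their deviations from the lineage means correlated by no more than 0.00894 to 0.0661. Library measures were compared by an exact two-sided sign-flip test over the 6 embryos (64 patterns). Intervals are 95% Clopper-Pearson, and the floor for 0 counts is 3 counts over a lineage. Data were also simulated for this comparison on the same genes, with dispersions estimated from these data and no embryo effect. The planted changes were 2 on the log2 scale in either direction. There 56 of 191 changed genes were called, all with the right sign, and 0 unchanged genes. The simulation followed the count model of the test, so it does not measure errors in the real data. Most planted changes were missed, so a gene not called can still differ.

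The cells, gene lists and rules were chosen with earlier results of these data known. Any member of the 34 lists could be named, beside the 10 largest called differences in each direction among genes whose sums did not overlap and averaged 20 CPM or more. Levels per kilobase use the exon length of a gene. Promoter windows are from the RefSeq table, and 137 of the 177 named called genes had one. DESeq2 1.42.0, other scalings and filters, equal weight for cells, and leaving out embryos or cells were tried. Acsl5 and the genes of the counts of 5 or fewer were named after their values were seen. A few members of the lists are counted in the totals of their list and are not reported here by name.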

Additional observations from a re-analysis of the deposited data

Results flagged for a closer look

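In 23 of 269 groups of 6 sums of the genes named above (8.6%) the highest or lowest embryo lay far from the rest. Its gap to its neighbour, as a share of the range, was above Dixon's 95% critical value. Only groups whose highest sum reached 10 CPM were examined, so groups otherwise near 0 entered only through their highest embryo. The gaps were taken on CPM without logs, so the 1 in 20 that holds for normally distributed values is no baseline here. Part of the flagged values were the highest embryo in the lineage that had less of the gene. The EPI sum was 10.9 CPM for Fgfr2 in embryo 5 (next 0.0866), 75.2 for Flrt3 in embryo 2, 11.1 for Col4a1 and 65.9 for P4ha2 in embryo 6, and 46.3 for Plod3 in embryo 1. The PrE sum was 49.9 CPM for Tdgf1 in embryo 6 (next 0.323), 20.7 for Slc7a3 (next 1.70) and 26.4 for Fgfr1 in embryo 7, 15.2 for Ldhb and 92.2 for Lefty2 in embryo 5, 56.9 for Pfkp in embryo 4 (next 20.9), and 21.96 for Grb2 in embryo 2. The PrE sum of embryo 6 rests on 2 cells.

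Within the lineage that had more of the gene, the EPI sum was the lowest for Pfkp in embryo 1 at 103 CPM (next 566), and the highest for Grn in embryo 1 at 255 and for Morc1 in embryo 5 at 208. The PrE sum was the lowest for Slc2a3 in embryo 6 at 431 CPM (next 1129), and the highest for Hnf4a at 81.3 and Eva1a at 198 in embryo 2. Genes present in both lineages were set apart by an EPI sum of 299 CPM for Glul in embryo 5, 210.4 for Kdelr2 in embryo 4 and 645 for Pdia3 in embryo 1 (the lowest), and by a PrE sum of 310.0 for Utf1 in embryo 5 and 64.9 for Tdg in embryo 2. The cause of these values was not tested.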

How the results depend on the processing

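Each sum holds 2 to 8 cells, and 6 pairs limit the test. All 840 calls kept their direction in every alternative that tested them. The alternatives reuse all or part of the cells from which the 840 were selected, so this was largely set by that selection. The block was the main design, and with no replicate block 958 genes were called (450 higher in EPI, 508 higher in PrE), of which 711 were among the 840, and 17 of 177 named calls were lost, among them Fgfr2, Hnf4a, Krt8, Ldha and Ldhb. DESeq2 called 2408 (1184 and 1224) and equal weight for cells 1799 (707 and 1092). The HET embryos alone gave 310 (113 and 197) and the WT embryos alone 5 (2 and 3), from fewer samples. With any 1 embryo left out the counts were 429 to 659 (170 to 287 higher in EPI, 248 to 399 higher in PrE), and 111 of the 177 named calls held in all 6 such fits. DESeq2 size factors gave 832, keeping low counts 630, requiring 10 CPM 862 and leaving out 2 shallow cells 764. Equal weight for cells moved the median of all genes from 0.06 to −0.10.

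Without the 2 cells that stood apart, 750 genes were called (337 and 413), and 11 of the named calls were not made, among them Gdf3, Dnmt3a, Hspg2, Eomes and Cldn4. The list counts for ER entry, ER to Golgi transport and ER chaperones were then 12, 14 and 16, for basement membrane 6 and for collagen processing 10.

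The interaction of lineage and genotype was called for 0 genes in the main fit and with no filter, 131 with DESeq2 and 2 with no replicate block. Among uncalled genes, the log2 fold change changed sign for Nodal (−0.91), Nid1 (0.054), Slc2a1 (0.59), Braf (−0.049), Id1 (0.13) and Apom (1.10) in the WT embryos alone, and for Slc2a1 without embryo 2, 4, 5 or 7 (values with 1 embryo left out ran from −0.31 to 0.15). DESeq2 called several genes that the main fit did not, among them Fgf10, Klb, Fgfr1, Fgfr4, Pdgfa, Lefty2, Nodal, Id2, Id3, Grb2, Braf, Apom, Dusp6 and Dnmt3b. The cause of these changes was not tested.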
